A study of Mus musculus with 24 samples.

Results

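The genes described are 10 that mark postmitotic neurons and encode parts of the neuronal cytoskeleton or neuronal RNA-binding proteins: Tubb3, Map2, Dcx, Stmn2, Nefl, Nefm, Ina, Elavl3, Elavl4 and Gap43. They were chosen by symbol, as the probe sets annotated to one of these symbols alone, and all 10 were found among the 19938 genes that the arrays measured in this way. Ina had 2 such probe sets, of which the one with the higher mean was used. Each of the other genes had 1.

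A neuron that has left the cell cycle extends an axon and dendrites built on bundled microtubules, which are stabilised and shaped by microtubule-associated proteins, and later fills the axon with neurofilaments. Neuronal ELAV-like proteins bind AU-rich and U-rich stretches in mRNAs and affect their stability and splicing, and growth-associated proteins sit beneath the membrane of the advancing growth cone. In differentiating embryonic stem cells such genes are commonly used to follow the appearance of neurons after neural progenitors have formed.

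The measurements are Affymetrix Mouse Gene ST 1.0 arrays of total RNA from embryoid bodies (EBs), the aggregates that embryonic stem cells form as they differentiate. All EBs came from 1 mouse line, 46C, which carries a green fluorescent reporter in the Sox1 gene. Treated EBs received FK506 at 100 ng/ml and cyclosporin A at 1 ug/ml from day 3 to day 8, both being drugs that block the phosphatase calcineurin, and untreated EBs received neither. Both were plated on dishes on day 7, moved to serum-free ITS medium on day 8 and harvested at days 4, 6, 8 and 12, in 3 independent experiments, which gave 8 groups of 3 arrays. The labels name no vehicle in the untreated cultures and no group given 1 drug alone. Day 12 lies after the drugs were withdrawn.

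Values are log2 signals as the authors deposited them, a difference is treated minus untreated or later minus earlier day on that scale with its SE, and rises and falls are those that limma's moderated test called at a Benjamini-Hochberg adjusted p below 0.05 over all 19938 genes. Array medians were all within 7.80 to 7.88. No detection calls came with the values, so a low signal was not shown to lie above background, and precision is limited by the number of arrays. Pou5f1, a core pluripotency factor, averaged 12.71 in treated and 12.75 in untreated EBs at day 4, and 9.20 in treated and 8.04 in untreated EBs at day 12. Sox1, an early neural progenitor factor, averaged 8.67 in treated and 8.76 in untreated EBs at day 4, and 8.80 in treated and 9.12 in untreated EBs at day 12. The arrays hold mixed cultures, in which fewer cells expressing a gene and less of its mRNA per cell cannot be told apart. Which cells gave the signals, neurons or others, was not measured.

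At day 12, 4 days after withdrawal, every one of the 10 genes was lower in treated EBs. The differences lay between -1.79 for Elavl4 and -0.75 for Gap43 with a median of -1.04, against a median of 0.02 over all genes, and 10.4% of all genes tested were called lower. For all 10 genes the 3 treated arrays lay below the 3 untreated arrays, which held for 17.1% of all genes. Before that day the picture was smaller: limma called 3 genes lower at day 8 and 0 at days 6 and 4, where 2 genes (day 6, Map2 and Gap43) and 0 (day 4) had an unadjusted p below 0.05. The share of all genes at that unadjusted threshold is not given here.

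**Figure D1:**
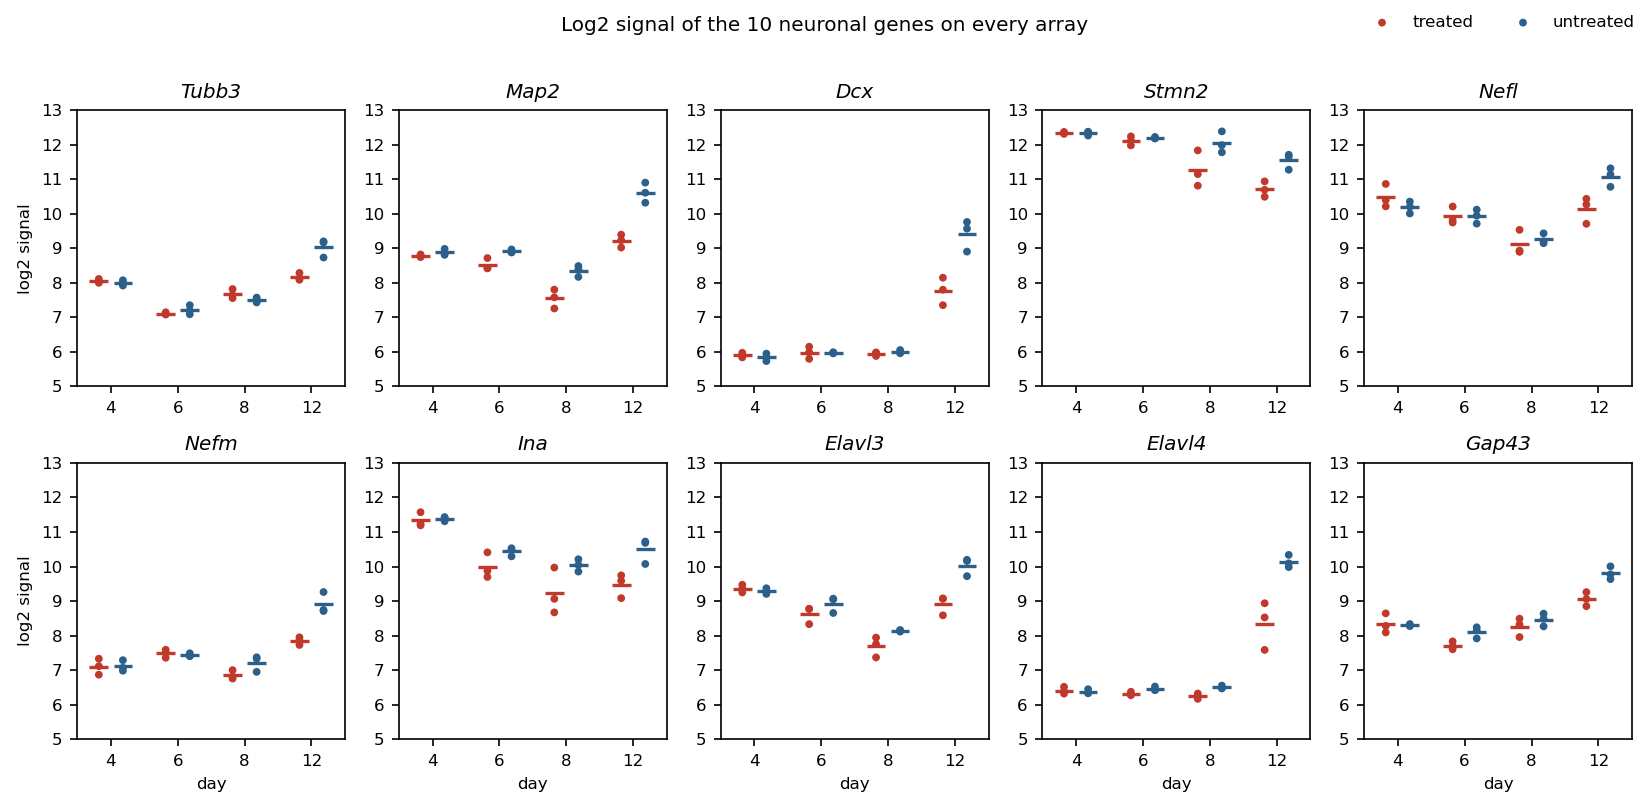
Log2 signal (vertical axis, the same range in every panel) of the 10 genes by day (horizontal axis), with points for the 3 arrays of each group and a bar for their mean, treated EBs to the left of untreated EBs. Dcx and Elavl4 lie level through day 8 and climb at day 12, while Stmn2 and Ina have their highest means at day 4.

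Among the microtubule genes, Dcx encodes doublecortin, which binds and stabilises microtubules in migrating and newly formed neurons. Its signal at day 12 was 7.35, 8.15 and 7.80 on the treated arrays, against 9.76, 8.91 and 9.57 on the untreated arrays. The highest treated array lay below the lowest untreated one, and the difference was -1.64 (SE 0.166, adjusted p 9.4e-07), a 3.13-fold lower signal. At days 4, 6 and 8 all 18 arrays of both treatments lay between 5.73 and 6.15, and no treatment difference on those days passed the test. Dcx lies at chrX:143855842-143933396 in GRCm38.p6.

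Map2, the microtubule-associated protein of dendrites and cell bodies, had 9.02, 9.40 and 9.24 in treated EBs at day 12, against 10.90, 10.32 and 10.61 in untreated EBs. The difference of -1.39 (SE 0.135, adjusted p 6.8e-07) followed one of -0.80 (SE 0.135, adjusted p 0.0015) at day 8, where the treated arrays read 7.26, 7.80 and 7.58 and the untreated arrays 8.17, 8.49 and 8.39. Treated and untreated arrays did not overlap on either day. At day 6 the treated arrays, at 8.43, 8.72 and 8.42, also lay below the untreated ones, at 8.89, 8.97 and 8.88, but the difference of -0.39 did not pass the test (adjusted p 0.18). Map2 lies at chr1:66175202-66442583.

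Tubb3, the neuronal class III beta-tubulin, had 8.09, 8.29 and 8.13 in treated EBs at day 12, against 9.17, 8.73 and 9.20 in untreated EBs. The groups lay apart by -0.87 (SE 0.10, adjusted p 4.5e-06). Its order was the other way round at day 8, where the treated arrays read 7.82, 7.64 and 7.56 and the untreated arrays 7.57, 7.52 and 7.43, although that difference of 0.17 (SE 0.10) did not pass the test and the groups overlapped. Tubb3 lies at chr8:123411553-123422015.

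Stmn2 encodes stathmin-2 (SCG10), which binds tubulin and promotes microtubule turnover in growth cones. At day 12 it had 10.49, 10.94 and 10.70 in treated EBs, against 11.71, 11.28 and 11.66 in untreated EBs. No arrays of the groups overlapped, and the means differed by -0.84 (SE 0.181, adjusted p 0.0023). At day 8 the treated arrays read 10.82, 11.84 and 11.15 and the untreated arrays 11.78, 12.39 and 11.99, which overlapped, with a difference of -0.79 (SE 0.181, adjusted p 0.0094). Stmn2 was highest at day 4, at 12.35 ± 0.03 in treated and 12.34 ± 0.06 in untreated EBs (SD, n = 3 each), and its lowest group mean of all 8 was that of treated EBs at day 12. It lies at chr3:8509527-8561604.

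The intermediate filament genes encode subunits of the axonal neurofilament: the light chain (Nefl), the medium chain (Nefm) and alpha-internexin (Ina). At day 12 Nefl had 9.71, 10.44 and 10.27 in treated EBs, against 11.14, 10.78 and 11.32 in untreated EBs, so that the means differed by -0.94 (SE 0.200, adjusted p 0.0021). Nefm had 7.73, 7.86 and 7.95 in treated EBs, against 8.71, 8.74 and 9.26 in untreated EBs, and the means differed by -1.06 (SE 0.137, adjusted p 1.7e-05). At day 8 the differences were -0.14 for Nefl (adjusted p 0.72) and -0.36 for Nefm (adjusted p 0.10), and neither passed the test, although Nefm did with the replicate number as a block (adjusted p 0.020). Nefl and Nefm are neighbours on chromosome 14, at chr14:68083863-68089095 and chr14:68119545-68125004.

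Ina had 9.08, 9.74 and 9.59 in treated EBs at day 12, against 10.68, 10.07 and 10.72 in untreated EBs, so that the groups lay apart, by -1.02 (SE 0.244, adjusted p 0.0049). At day 8 its treated arrays spread widely, at 8.67, 9.97 and 9.06, against 9.85, 10.21 and 10.05 in untreated EBs, and the difference of -0.80 (SE 0.244) just passed the test at an adjusted p of 0.042. The second treated array at day 8 lay inside the untreated range. The gene's other probe set, looked at after seeing the data, gave -0.91 at day 8 (adjusted p 0.017) and -1.25 at day 12 (adjusted p 0.00061). Its differences of -0.24 at day 4 (adjusted p 0.90) and -0.53 at day 6 (adjusted p 0.34) did not pass the test. Ina lies at chr19:47014681-47025327.

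The RNA-binding genes encode neuronal ELAV-like proteins, Elavl3 (HuC) and Elavl4 (HuD). Elavl4 had 7.58, 8.94 and 8.52 in treated EBs at day 12, against 10.09, 9.98 and 10.34 in untreated EBs. The means differed by -1.79 (SE 0.188, adjusted p 1.4e-06), which is a 3.46-fold lower signal in treated EBs. The Elavl4 difference was the largest among the 10 genes, and its treated arrays were also the most spread, over more than 1 log2 unit. Through days 4, 6 and 8 the 18 arrays stayed between 6.17 and 6.55. Elavl3 had 8.59, 9.06 and 9.08 in treated EBs at day 12, against 10.19, 9.72 and 10.16 in untreated EBs, and the means differed by -1.12 (SE 0.158, adjusted p 4.0e-05). Unlike Elavl4 it had a high signal at day 4, at 9.36 ± 0.11 in treated and 9.29 ± 0.08 in untreated EBs (SD, n = 3 each). Elavl4 lies at chr4:110203737-110351939 and Elavl3 at chr9:22015005-22052146.

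Gap43, the growth-associated protein of growth cones, had 8.85, 9.26 and 9.06 in treated EBs at day 12, against 9.77, 9.64 and 10.004 in untreated EBs. The groups lay apart, and the difference of -0.75 (SE 0.145, adjusted p 0.00089) was the smallest of the 10. Treated arrays at day 6 read 7.60, 7.83 and 7.69, against 7.92, 8.16 and 8.24 in untreated EBs, a difference of -0.40 that did not pass the test (adjusted p 0.21). At day 8 the groups overlapped, with a difference of -0.21. Gap43 lies at chr16:42248552-42340651.

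**Figure D2:**
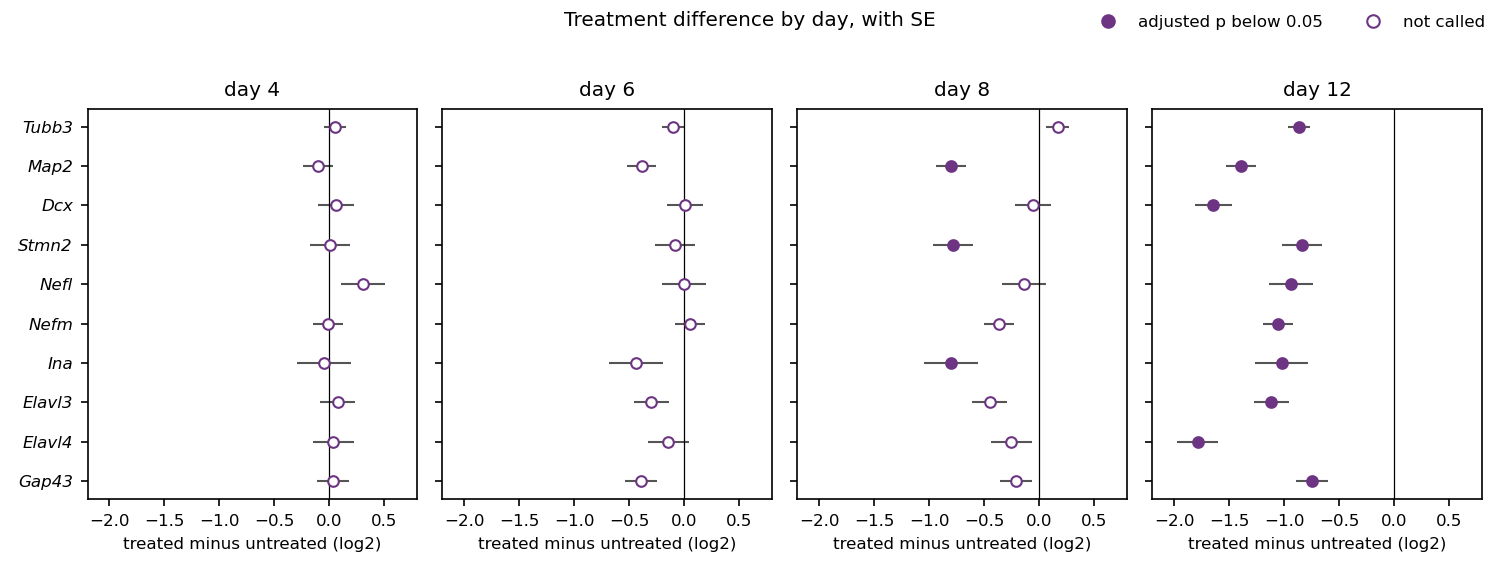
Treated minus untreated log2 signal (horizontal axis) for each of the 10 genes (rows) in a panel per day, with bars of 1 SE from limma and filled points where the adjusted p was below 0.05. Points gather around 0 at day 4, 3 are filled at day 8 and all 10 are filled at day 12, between -1.79 and -0.75.

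Of the 10 genes, 6 had entries in the RefSeq promoter table of GRCm38.p6 (Dcx, Elavl3, Elavl4, Ina, Map2 and Tubb3, with 10 starts in all), and Stmn2, Nefl, Nefm and Gap43 had none. The 250 bases before a start are shown for 3 genes with different courses: Elavl4, which was level until day 8 and then climbed (chr4:110287528-110287777, minus strand, inside the span of longer Elavl4 transcripts), Ina, which was highest at day 4 (chr19:47014431-47014680, plus strand), and Tubb3, which was lowest at day 6 (chr8:123411303-123411552, plus strand). Capitals mark the E-box letters CANNTG, the core to which proneural bHLH factors bind, and the TATA letters TATAAA, searched on both strands.
Elavl4: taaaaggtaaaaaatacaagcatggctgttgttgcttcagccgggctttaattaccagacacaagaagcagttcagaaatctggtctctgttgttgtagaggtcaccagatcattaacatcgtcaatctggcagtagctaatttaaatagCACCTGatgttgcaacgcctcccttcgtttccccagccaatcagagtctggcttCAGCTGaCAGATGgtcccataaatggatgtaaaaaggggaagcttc
Ina: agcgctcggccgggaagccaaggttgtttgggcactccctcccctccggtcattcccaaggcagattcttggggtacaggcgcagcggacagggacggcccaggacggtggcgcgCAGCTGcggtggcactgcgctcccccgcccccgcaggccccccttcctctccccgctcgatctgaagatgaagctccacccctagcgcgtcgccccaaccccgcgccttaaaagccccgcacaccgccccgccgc
Tubb3: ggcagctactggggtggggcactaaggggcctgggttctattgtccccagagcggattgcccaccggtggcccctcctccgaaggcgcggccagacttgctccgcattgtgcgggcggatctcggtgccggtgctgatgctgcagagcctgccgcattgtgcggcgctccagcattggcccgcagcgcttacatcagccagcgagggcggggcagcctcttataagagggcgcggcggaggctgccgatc
The Elavl4 window shown holds 3 E-boxes, the Ina window 1 and the Tubb3 window 0. Windows of other Elavl4 starts hold 3, 1 and 0, and a link between E-boxes and course was not tested. CANNTG was in 5 of the 10 windows of these genes, from 3 of the 6 genes (Elavl3, Elavl4 and Ina), and in 66.2% of all 32851 windows of this length. TATAAA was in windows of Dcx and Elavl3 and in 12.4% of all windows. GGACAGC, part of the RE1 element bound by the repressor REST, was in the Map2 window and in 5.28% of all windows. These letters describe the windows and show no binding.

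The untreated EBs give the course against which the treated ones were set. From day 4 to day 6, 2 of the 10 genes fell: Ina by 0.95 (SE 0.244, adjusted p 0.0039) and Tubb3 by 0.79 (SE 0.10, adjusted p 3.3e-06). Over this step 20.9% of all genes were called lower and 21.1% higher. From day 6 to day 8, Elavl3 fell by 0.79, Nefl by 0.67 and Map2 by 0.56, while Tubb3 rose by 0.29 (adjusted p 0.027), against 18.3% of all genes lower and 17.8% higher. The untreated course thus had several of these genes at a higher signal in early EBs than at day 8, and the label of postmitotic neuron genes describes where they are known to act, not when each signal was highest. Elavl3, for example, averaged 8.14 in untreated EBs at day 8 and 9.29 at day 4. The Tubb3 rise did not pass the test without untreated replicate 1 or 2 of day 6 or of day 8 (adjusted p 0.113, 0.0734, 0.102 and 0.0612), nor after quantile normalization (0.0915), and neither did the Nefl fall without untreated replicate 2 of day 6 (adjusted p 0.0680). Fitted on the compared arrays alone, the first step had 4 calls, with Elavl3 (-0.36) and Nefm (0.32) added.

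In treated EBs the same steps held more calls. From day 4 to day 6, Ina fell by 1.34, Tubb3 by 0.94, Elavl3 by 0.74, Gap43 by 0.63 and Nefl by 0.57, while Nefm rose by 0.38, against 25.1% of all genes lower and 19.1% higher. From day 6 to day 8, 6 genes fell, by between 0.98 (Map2) and 0.63 (Nefm), the others being Elavl3, Stmn2, Nefl and Ina, and 2 rose, Tubb3 by 0.56 and Gap43 by 0.55, against 24.7% of all genes lower and 16.8% higher. Whether treated and untreated EBs differed in these steps was tested directly as the change of the treatment difference, and 0 of the 10 genes passed for day 4 to day 6 (0.0953% of all genes) and 0 for day 6 to day 8 (0.401% of all genes) in limma. At an unadjusted p below 0.05 there were 1 (Gap43) and 3 (Map2, Nefm and Stmn2). The shares of all genes above belong to the adjusted threshold, not to this one. With the replicate number as a block, Stmn2 passed for the second step, at -0.70 (adjusted p 0.043). It also passed without treated replicate 2 of day 8, at -0.99 (adjusted p 0.0052). In treated EBs the day 4 to day 6 calls of Nefl and Nefm were lost without any of treated day 4 replicate 1, day 6 replicate 1 or day 6 replicate 3 (Nefl, adjusted p 0.158, 0.0994 and 0.0858) and without day 4 replicate 2 or 3 or day 6 replicate 2 or 3 (Nefm, adjusted p 0.154, 0.0581, 0.0940 and 0.0742), and the day 6 to day 8 call of Ina was lost without treated day 6 replicate 2 or day 8 replicate 1 or 3 (adjusted p 0.103, 0.135 and 0.0644) and on the compared arrays alone (adjusted p 0.0896).

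At day 4, a day after the drugs were added, the treatment differences of the 10 genes lay between -0.10 (Map2) and 0.30 (Nefl), with 0.00502% of all genes called. At day 6 they lay between -0.44 (Ina) and 0.05 (Nefm), with 1.84% of all genes called. Dcx, Nefl, Nefm and Stmn2 differed by less than 0.1 at day 6, each by less than its SE. The 3 calls at day 8 (Map2, Stmn2 and Ina) compare with 4.08% of all genes called lower, and 9 of the 10 differences were below 0, with a median of -0.31 against -0.04 over all genes. At this day 5 genes passed with the replicate number as a block, Nefm (-0.36, adjusted p 0.020) and Elavl3 (-0.45, adjusted p 0.040) being added. The 4.08% of all genes belongs to the fit without the block, and the share with it is not given here. Fitted by limma on the 6 arrays of day 8 alone, 0 of the 10 and 0 of all genes passed, with 6 of the 10 and 3969 of all genes at an unadjusted p below 0.05. Only Map2 kept its call when any single array was left out. The Stmn2 call was lost without untreated replicate 2 or treated replicate 1 or 3 of day 8 (adjusted p 0.0914, 0.107 and 0.0551), and the Ina call without untreated replicate 2 or 3 or treated replicate 1 or 3 (adjusted p 0.188, 0.0907, 0.322 and 0.166) and with an intensity trend and robust prior (adjusted p 0.0715). Nefm was called in addition without untreated replicate 1 (-0.50), and Elavl3 without treated replicate 2 (-0.58).

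From day 8 to day 12, the same 8 genes rose in treated and in untreated EBs, by less in treated EBs for each of them. Elavl4 rose by 2.10 in treated and by 3.64 in untreated EBs (SE 0.188), and Dcx by 1.83 in treated and by 3.41 in untreated EBs (SE 0.166), both from day 8 signals that were not shown to lie above background. Map2 rose by 1.67 in treated and 2.26 in untreated EBs (SE 0.135). The rise of Elavl3 was 1.22 in treated and 1.89 in untreated EBs (SE 0.158). Nefl rose by 1.02 in treated and 1.82 in untreated EBs, and Nefm by 0.99 in treated and 1.69 in untreated EBs. Gap43 rose by 0.80 in treated and 1.34 in untreated EBs, and Tubb3 by 0.50 in treated and 1.53 in untreated EBs. These were the 8 genes, and each rise passed the test. Genes called higher over this step made up 16.5% of all genes in treated and 18.8% in untreated EBs. Stmn2 stood apart from the other microtubule genes: it fell over the same days by 0.56 in treated EBs (SE 0.181, adjusted p 0.020) and by 0.50 in untreated EBs (adjusted p 0.031), with 16.7% and 19.9% of all genes called lower. Ina changed by 0.24 in treated and 0.46 in untreated EBs, neither of which passed the test. The Stmn2 falls were lost without treated replicate 2 of day 8 or treated replicate 1 or 3 of day 12 (adjusted p 0.200, 0.104 and 0.0540) and without untreated replicate 2 of day 8 or of day 12 (adjusted p 0.189 and 0.163), and the fall in treated EBs was lost on the compared arrays alone (adjusted p 0.142). Ina passed in treated EBs without treated replicate 2 of day 8 (0.60, adjusted p 0.035).

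**Figure D3:**
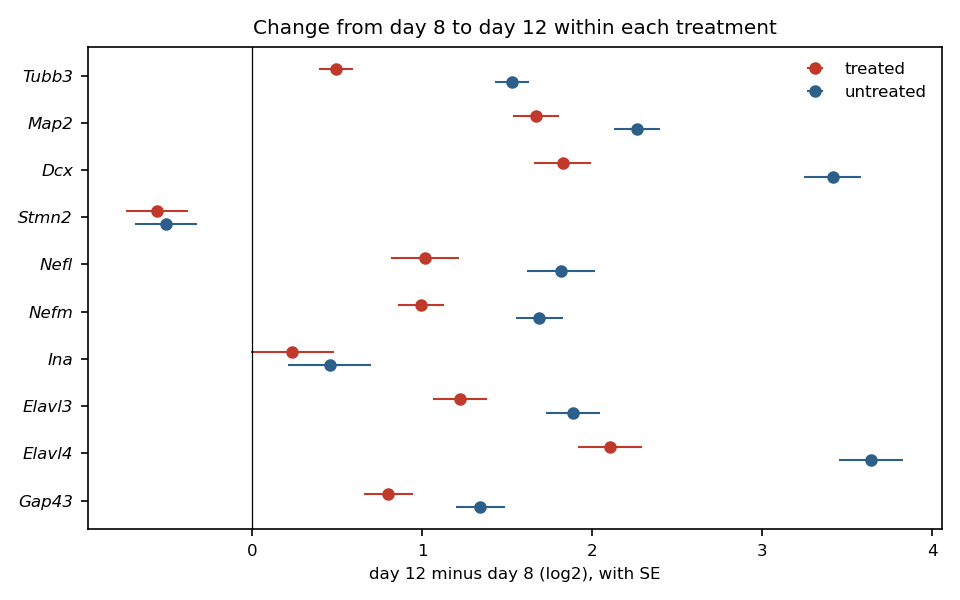
Day 12 minus day 8 log2 signal (horizontal axis) of the 10 genes (rows) in treated EBs (upper point of each row) and untreated EBs (lower point), with bars of 1 SE. The treated point lies to the left of the untreated one for every gene, by the widest margin for Dcx and Elavl4, and Stmn2 lies below 0 in both.

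Tested as the change of the treatment difference from day 8 to day 12, the gap widened downward for 4 of the 10 genes, against 2.57% of all genes. These were Dcx (-1.59, SE 0.235, adjusted p 0.00060), Elavl4 (-1.54, SE 0.266, adjusted p 0.0024), Tubb3 (-1.03, SE 0.142, adjusted p 0.00032) and Nefm (-0.69, SE 0.194, adjusted p 0.040). Stmn2 (-0.05, SE 0.255) and Ina (-0.22, SE 0.344) had the smallest changes. For both, the difference at day 8 (-0.79 and -0.80) was already called. Map2 was called lower on both days, and its change of -0.59 (SE 0.191) had an adjusted p of 0.072. With the replicate number as a block, 7 genes passed, Map2 (adjusted p 0.043), Nefl (-0.80, adjusted p 0.025) and Elavl3 (-0.66, adjusted p 0.043) being added. The 2.57% of all genes belongs to the fit without the block, and the share with it is not given here. Fitted on the arrays of days 8 and 12 alone, 2 passed, Dcx and Tubb3, and Elavl4 had an adjusted p of 0.0541. The Nefm call was lost without untreated day 8 replicate 1 (adjusted p 0.109), treated day 8 replicate 1, 2 or 3 (0.0633, 0.0572 and 0.0603), untreated day 12 replicate 3 (0.0983) or treated day 12 replicate 1 or 3 (0.0906 and 0.0625). Calls were added without treated day 8 replicate 1 (Map2 -0.74 and Elavl3 -0.82), treated day 8 replicate 2 (Gap43 -0.69), untreated day 12 replicate 2 (Map2 -0.74 and Elavl3 -0.82) and treated day 12 replicate 2 (Map2 -0.68 and Nefl -0.95).

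The size of the day 12 difference varied between the replicate numbers, whose pairing was not clear for replicate 3 on this day. Whether this spread lay between experiments or between single arrays was not tested. Between arrays of the same replicate number, the differences had medians of -1.51, -0.55 and -1.11 in replicates 1, 2 and 3. Every difference was below 0, as any matching of arrays would give, since all treated arrays lay below all untreated arrays. Replicate 2 had the smallest difference for every one of the 10 genes. Elavl4 differed by -2.51, -1.05 and -1.81 in the 3 numbers, Dcx by -2.41, -0.76 and -1.77, and Ina by -1.60, -0.33 and -1.14. Both sides contributed: treated replicate 2 was the highest treated array for 8 of the 10 genes, and untreated replicate 2 was the lowest untreated array for 9. Treated replicate 1 was the lowest treated array for all 10. No day 12 call was lost in any of the 12 to 14 alternatives run for each gene, the highest adjusted p being 0.043, for Ina.

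**Figure D4:**
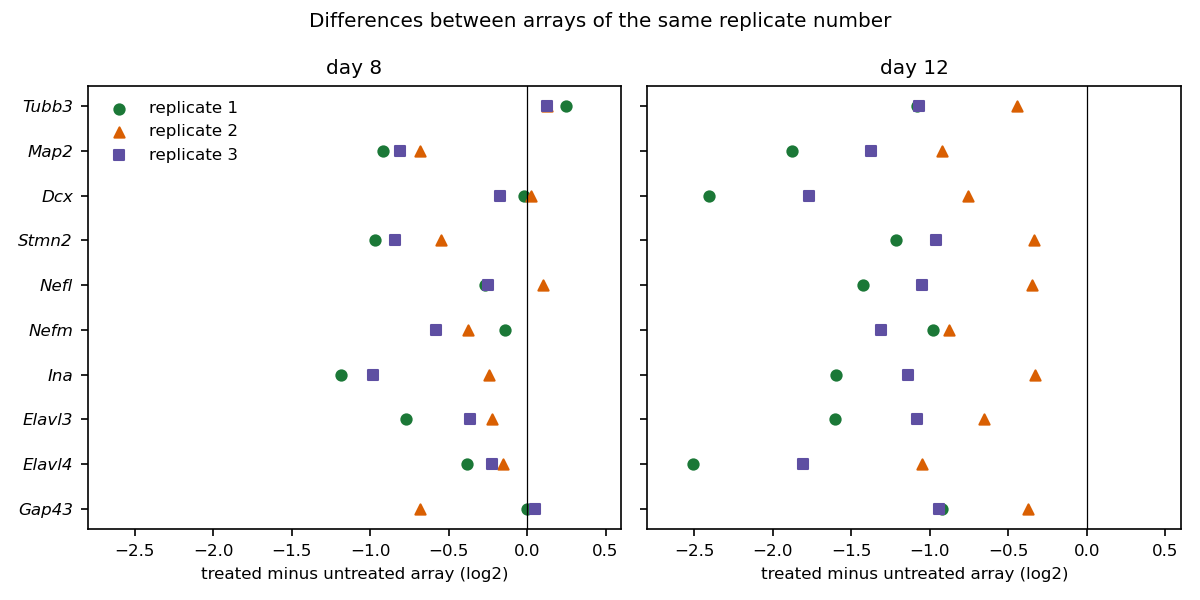
Treated minus untreated log2 signal (horizontal axis) of arrays with the same replicate number, for each of the 10 genes (rows) at day 8 and day 12, with a marker shape per replicate. At day 12 the triangles of replicate 2 lie closest to 0 in every row. The differences of every gene and replicate lie below 0 at day 12, as they must where the groups do not overlap.

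Across the 8 group means the 10 genes fell into unlike courses. Of the 45 pairs of genes, 35 had a correlation above 0, with a median of 0.68, and all 10 pairs below 0 involved Stmn2 or Ina. Dcx and Elavl4 were the most alike, at 0.998, and Stmn2 and Dcx the least alike, at -0.56. The points are only 8, share the same arrays, and are given as a description. In order of level, untreated day 12 was the highest group for 8 of the 10 genes. For Tubb3, Map2, Dcx, Elavl3, Elavl4, Nefm and Gap43 its arrays did not overlap those of the next group, and for Nefl they overlapped those of treated EBs at day 4. The share of all genes with such an order was not counted, so these counts only describe the 10 genes. Treated day 12 came second for Tubb3, Map2, Dcx, Elavl4, Nefm and Gap43, overlapping treated day 4 in Tubb3 alone. For Stmn2 and Ina the day 4 groups were the highest, and treated and untreated EBs overlapped there. On Ina's other probe set they did not overlap at day 4. Treated arrays read 11.13, 11.18 and 11.26 there, against 11.33, 11.44 and 11.52 on untreated arrays.

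Among 3952 genes whose group means spanned at least 1 log2 unit, those most like the mean course of the 10 over the 8 groups were Tppp3 (0.991), a tubulin polymerisation-promoting protein, Snap25 (0.990), a presynaptic SNARE protein, and Septin3 (0.989), a septin enriched in brain. Fmn2, Rbfox3, Adgrv1, Tubb2b, Ppm1e, Mfng and Ckb followed, down to 0.975. Of these 10 genes, 6 were also among the 10 most alike over the 24 single arrays. The genes most like single members were Clvs1 for Dcx and for Elavl4 (0.995 for both) after each other, Necab2 for Elavl3 (0.993), Elavl3 for Nefl (0.980), Cdc25b for Map2 (0.995), Tox2 for Gap43 (0.991), H2-Ke6 for Nefm (0.987), Doc2a for Ina (0.989), Cecr2 for Stmn2 (0.993) and Vxn for Tubb3 (0.973).

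Other neuronal genes were counted from lists of the same pathways. Of all genes, 10.4% were called lower at day 12 and 4.08% at day 8, the shares to set beside the counts of falling genes here and below. Of 22 further neuronal microtubule genes, 15 fell and 0 rose in treated EBs at day 12, with a median of -0.62. Kif5c, a kinesin heavy chain of axonal transport, averaged 8.90 in treated EBs against 10.08 in untreated EBs (-1.17, SE 0.122, adjusted p 1.3e-06), and Crmp1, which binds tubulin downstream of semaphorins, averaged 9.02 in treated and 10.05 in untreated EBs (-1.02). Kif1a, another kinesin of axonal transport, differed by -0.97. At day 8, 7 of the 22 were lower and 3 higher (Kif21b, Dpysl2 and Map1b, named here after their values were seen). Of 16 further neuronal RNA-binding and splicing genes, 7 fell and 1 rose at day 12 (Khdrbs2, at 0.31, named after its value was seen), with a median of -0.22. Nova1, a neuronal splicing regulator, averaged 9.31 in treated EBs against 10.49 in untreated EBs (-1.18, SE 0.147), and Celf3 averaged 8.33 in treated and 9.35 in untreated EBs (-1.02). Srrm4, which activates neuronal microexons, differed by -0.77, and Rbfox3, the NeuN antigen, by -0.66.

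Of 20 measured genes of growth cones, axon membranes and synaptic vesicles, 12 fell and 1 rose at day 12, with a median of -0.43. Nrcam, an axonal adhesion molecule, averaged 8.46 in treated EBs against 10.19 in untreated EBs (-1.73, SE 0.230, adjusted p 2.1e-05), and was lower at day 8 too (-1.05, adjusted p 0.0071). Ank2 (-0.85), Rtn1 (-0.75) and the synaptic vesicle calcium sensor Syt1 (-0.70) were lower at day 12. The gene that rose, Ncam1, a neural cell adhesion molecule named here after its value was seen, averaged 11.59 in treated EBs against 10.94 in untreated EBs (0.65, SE 0.140, adjusted p 0.0022). Of the remaining neurofilament-type genes, Nefh, the heavy chain, differed by 0.15 and Prph, peripherin, by 0.08 at day 12, and neither passed the test, also unadjusted. At day 8 Prph was higher, averaging 8.80 in treated EBs against 8.22 in untreated EBs (0.58, SE 0.137, adjusted p 0.011). Of 8 broadly expressed relatives, 2 fell and 1 rose, with a median of 0.00: Stmn1 differed by -0.26, Lmnb1 by -0.24 and Map4 by 0.22.

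**Figure D5:**
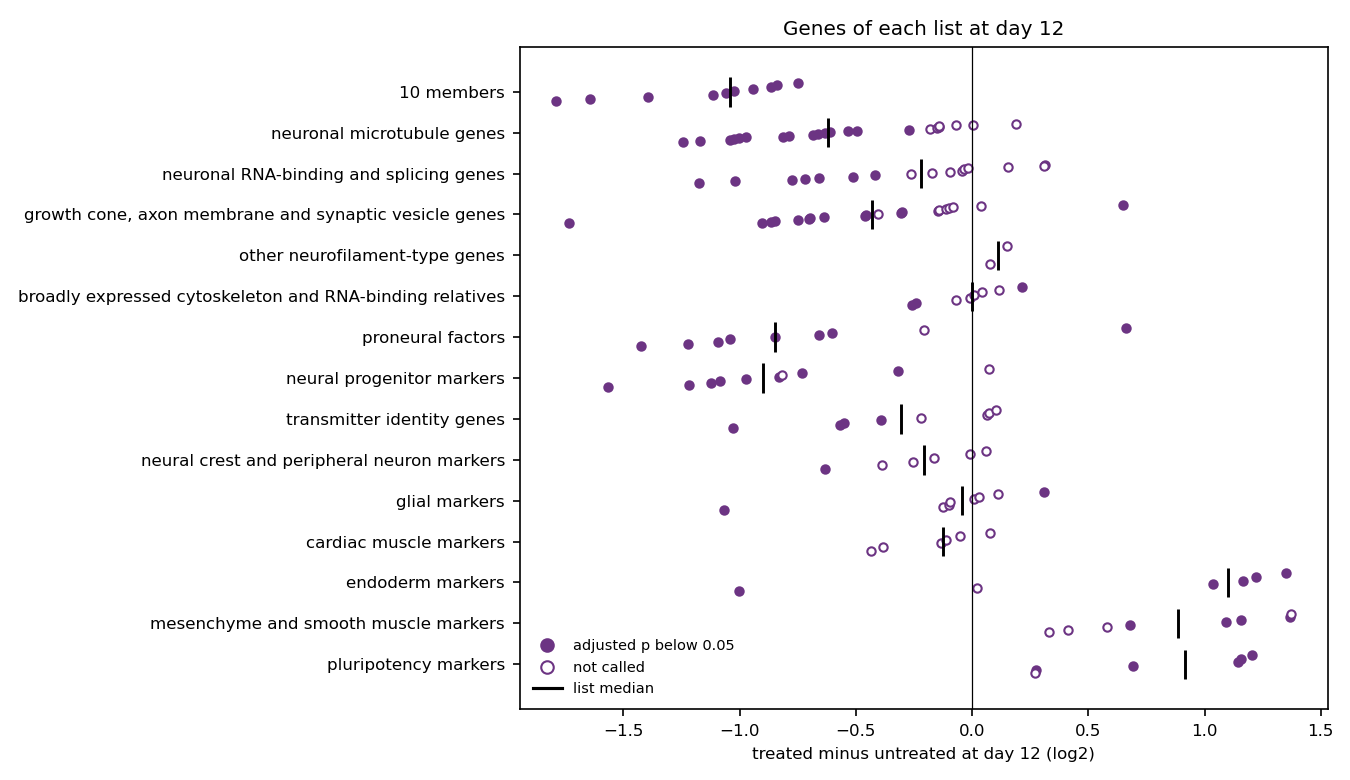
Treated minus untreated log2 signal at day 12 (horizontal axis) of the genes in each list (rows), with filled points for an adjusted p below 0.05 and a bar at the list's median. The 10 members lie at the left with a median of -1.04, broadly expressed relatives lie around 0, and the pluripotency, mesenchyme and endoderm lists have medians of 0.92, 0.89 and 1.10.

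Most genes of the stages before the neuron, and 4 of 8 transmitter genes, were also lower at day 12. Of 9 measured proneural factors, 7 fell and 1 rose (Atoh1, at 0.66, named after its value was seen). Neurod1 averaged 7.51 in treated EBs against 8.93 in untreated EBs (-1.42, SE 0.207, adjusted p 5.1e-05), and Neurog2 averaged 8.02 in treated and 9.06 in untreated EBs (-1.04). At day 8, limma called 0 of the 9 (1, Insm1, had an unadjusted p below 0.05), with differences between -0.27 and 0.02. Of 10 neural progenitor markers, 8 fell at day 12 and 5 at day 8 (Sox1, Pax6, Sox2, Prom1 and Fabp7), among them Pax6, a regulator of neural progenitors, at -1.22 (SE 0.158) on day 12 and -0.55 (adjusted p 0.033) on day 8. Transmitter genes were lower for 4 of 8 at day 12: Th, tyrosine hydroxylase, at -1.03, the vesicular glutamate transporter Slc17a6 at -0.57, and the GABA-synthesising enzymes Gad2 at -0.55 and Gad1 at -0.39. Of these, Gad2 (-0.62, adjusted p 0.0016) and Gad1 (-0.45, adjusted p 0.0084) were already called lower at day 8 by limma. Th (-0.11) and Slc17a6 (-0.31) were not called on that day.

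Among markers of other cell types, the mesenchyme, pluripotency and endoderm lists had higher sums in treated EBs at day 12. Few or no cardiac, glial and neural crest markers were called. Of all 19938 genes, 3563 were called at day 12, 41.9% of them higher, and 1781 at day 8, 54.4% of them higher. At day 12 the summed log2 signal of 8 mesenchyme and smooth muscle markers ranged from 95.8 to 99.2 in treated EBs and from 88.9 to 92.2 in untreated EBs, and 4 of the 8 rose (Col1a1, Col3a1, Dcn and Pdgfrb). That of 6 pluripotency markers ranged from 53.9 to 55.9 in treated EBs and from 49.0 to 51.5 in untreated EBs, and 5 of the 6 rose (Nanog, Pou5f1, Dppa5a, Esrrb and Klf4). That of 6 endoderm markers ranged from 60.5 to 61.5 in treated EBs and from 56.5 to 58.2 in untreated EBs, with 4 higher (Afp, Gata6, Ttr and Gata4) and 1 lower (Foxa2, which floor plate cells also express). At day 8, 6 of the 8 mesenchyme markers were higher in treated EBs, led by Postn (2.96, SE 0.50, adjusted p 0.0016), with sums from 76.5 to 89.7 in treated and from 69.8 to 77.4 in untreated EBs. Cardiac markers, at 0 called of 6 by limma (1, Myh6, at an unadjusted p below 0.05), and glial markers, with Olig2 lower (-1.07) and Cnp higher (0.31) of 8, had medians of -0.12 and -0.04. Of 6 neural crest and peripheral neuron markers 1 fell, Isl1 (-0.63). Without detection calls, no marker was shown to be present or absent. The part of other cell types in the differences of the 10 genes was not tested.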

How the data were processed

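RNA of 24 EB samples was measured on 1-colour arrays. The authors' deposited log2 values come from RMA in Affymetrix Expression Console, per the submitters' processing notes. The sources used here give no version, library file or genome build for it. The log2 scale was read from the values' range. Of 35556 probe sets, 21789 had 1 symbol in the platform annotation, 1621 had several and 12146 were not listed. Where several probe sets shared a symbol, that of highest mean signal stood for the gene, leaving 19938 genes. RMA makes arrays comparable by giving them like distributions, so a change shared by all genes would not show.

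Samples were grouped by the labels' treatment and day. Group means were fitted over all 24 arrays (16 residual degrees of freedom) with limma 3.58.1 (lmFit, eBayes) in R 4.3.3, with Benjamini-Hochberg adjustment within each of 13 contrasts at 0.05. The procedure was tested on simulated data. Python 3.11.15 with pandas 2.3.3 and numpy 2.4.6 made the tables, and matplotlib 3.10.9 the plots. Treatment differences had a median SE of 0.0919, and the smallest SD between 2 arrays was 0.175, so no array was a copy of another.

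The members, lists and tests were chosen with earlier results of these data known. Named genes were the 10 members, up to 4 genes per list with the smallest p at day 8 or 12, the 10 genes most like the members' mean, Sox1 and Pou5f1. Further list genes were named after their values were seen, because they were called or had a small unadjusted p. Some of these are marked in the text. Others are not, such as Sox2, Prom1, Fabp7, Insm1 and some of the pluripotency, endoderm and mesenchyme markers. Of the 3 genes most like each member, only the first is named, or the first 2 for Dcx and Elavl4. Whether replicate numbers pair treated and untreated arrays was checked by correlating each array's deviations from its group mean. With the same number, r was 0.30, 0.14 and 0.21 at day 6, then 0.48, 0.55 and 0.11 at day 8, then 0.12, 0.34 and 0.25 at day 12, all over 0.1, and the numbers were taken as pairs there. Treated replicate 3 correlated slightly more with untreated replicate 1, at 0.126 on day 8 and 0.264 on day 12. Its pairing on these days was thus not clear. At day 4 r was -0.014, 0.19 and -0.053. Alternatives were quantile normalization, median centring, averaging probe sets per gene, leaving out genes under the 40th percentile of mean signal (7 of 10 members pass, Dcx, Elavl4 and Nefm do not), an intensity trend with robust prior, the replicate block, fits on only the groups compared, single arrays left out and, added after seeing the data, the other Ina probe set.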

Additional observations from a re-analysis of the deposited data

Results flagged for a closer look

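For 4 genes the treatment difference itself differed between day 8 and day 12, by limma's test of the interaction. The change, day 12 minus day 8, was -1.59 for Dcx (SE 0.235, adjusted p 0.00060), -1.54 for Elavl4 (SE 0.266, adjusted p 0.0024), -1.03 for Tubb3 (SE 0.142, adjusted p 0.00032) and -0.69 for Nefm (SE 0.194, adjusted p 0.040). In Tubb3 the treated mean was 0.17 above the untreated one at day 8 (not called) and differed from it by -0.87 at day 12. The day 8 signals of Dcx and Elavl4 were not shown to lie above background. Of 18 alternatives each, the Nefm call was lost in 8 and the Elavl4 call in 1.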

How the results depend on the processing

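The count of 10 genes lower at day 12 was 10 in every leave-one-out fit. The 3 calls at day 8 became 5 with the replicate block, 0 on the compared groups only and between 1 and 4 with 1 array left out (1 without untreated replicate 2, treated replicate 1 or treated replicate 3 of day 8). The 4 changes of the treatment difference from day 8 to day 12 became 1 with the 40th percentile filter, which leaves out Dcx, Elavl4 and Nefm, 7 with the replicate block, 2 on the compared groups only, and between 3 and 6 with 1 array left out. For day 6 to day 8 the 0 calls became 1 with the block and ranged from 0 to 1 with 1 array left out. The 2 untreated calls from day 4 to day 6 became 4 on the compared groups only, and the 4 from day 6 to day 8 ranged from 2 to 5 with 1 array left out, 2 being without untreated replicate 2 of day 6. The cause of these moves was not tested. The blocked fit changed no other count by over 1.5 times. Shares of all genes called in these alternative fits are not given here, so the counts are not set against them. Leaving out 1 array turned the sign of uncalled changes from day 8 to day 12: the Stmn2 change of the treatment difference from day 8 to day 12 was above 0 in 5 such fits (0.08, 0.23, 0.03, 0.0015 and 0.05) and ranged from -0.28 to 0.23, that of Ina ranged from -0.50 to 0.15, and the Ina step from day 8 to day 12 in treated EBs ranged from -0.046 to 0.60. Over all alternatives and all 13 contrasts, single genes lost a call 43 times and gained one 27 times. The share of higher genes among all called moved by over 10 points with scaling: at day 6 it was 68.6%, and 54.4% after quantile normalization, and at day 8 it was 54.4%, and 65.6% after median centring. From day 6 to day 8 in treated EBs it was 40.5%, and 52.4% after median centring. Without detection calls, the signals of Dcx and Elavl4 before day 12 were not shown to lie above background.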
